A study of Mus musculus with 46 samples.

Results

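The genes described here are 40 targets of the nuclear receptor PPARA and enzymes of fatty acid oxidation, chosen by name, of which 39 had a probe set of their own among the 19938 genes measured in mouse liver. A gene was taken where its platform symbol matched the listed name exactly, and the probe set with the highest mean stood for it. Acsl1, an acyl-CoA synthetase, was not analysed here, and Hadhb alone had a second probe set. The liver RNA came from SKH:QS mice whose backs received a sunscreen base without particles (formulation), the same kind of sunscreen with 68ZnO microparticles (micro ZnO) or with 68ZnO nanoparticles (nano ZnO), or nothing (untreated). The treated mice had 6 applications over 4 days, and all livers were taken on day 5. The virgin experiment held 6 mice in each of the 4 arms. In the pregnant experiment, near day 17 of gestation, there were 6 mice each for formulation and nano ZnO and 5 each for micro ZnO and no treatment. All mice were housed singly with 14 h of light and food at will, and were killed after an injection of Xylase and ketamine. Collars that limit licking are part of the stated protocol, which does not name the untreated mice apart. The labels call the replicates biological, and 1 array was made per mouse.

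PPARA is a receptor for fatty acids and their derivatives that, paired with RXR, switches on genes for burning fat, and in liver its activity is known to rise in fasting. Mitochondria take in long-chain fatty acids through the carnitine shuttle and shorten them step by step in the beta-oxidation spiral, passing electrons to the respiratory chain through the electron transfer flavoprotein. Peroxisomes shorten very long-chain, branched and dicarboxylic fatty acids, and their enzymes are classical targets of the receptor in rodents. Other targets bind, store or release fatty acids, or are secreted from the liver.

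In virgin mice the particle-free formulation went with lower levels of 22 of the 39 genes and higher levels of 0. Of all tested probe sets 26.5% differed, 15.0% lower and 11.5% higher. The decrease covered Ppara itself, 9 of the 10 enzymes of the mitochondrial spiral, and 5 of 11 peroxisomal genes. Most of these genes are bright, and 41.6% of all probe sets with a mean of at least 8 were lower, beside 18 of the 25 genes that bright. With the interquartile range of each array in the model 0 of the 39 were called, and after further quantile normalization 7. Livers of mice given micro ZnO or nano ZnO in that base did not show the same decrease in full. Against formulation, 11 genes were higher with micro ZnO and 7 with nano ZnO, Ppara and Hadhb among both, where 6.83% and 3.25% of all tested probe sets differed. The same formulation mice stand in the comparison with untreated mice, so these results are not independent of the decrease. In pregnant mice no gene was called in any comparison (0 of 39), although estimates against untreated mice lay below 0 for 35 to 37 of the 39 genes in each arm.

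The values are log2 intensities, so a difference of 1 is a 2-fold difference. A gene was called where the adjusted p of limma was under 0.05, over 23410 probe sets with a gene symbol. Errors given after ± are standard errors of the fitted change, or SDs where that is written. Hepatocyte markers were bright in all groups (mean log2 level of 6 markers between 12.58 and 12.75 in virgin mice and between 12.08 and 12.29 in pregnant mice). Virgin arrays differed in the spread of their values: in untreated mice their interquartile range averaged 2.97 ± 0.07 (SD, n = 6), against 2.83 ± 0.05 with formulation, 2.91 ± 0.03 with micro ZnO and 2.90 ± 0.06 with nano ZnO. A clock score was the mean standardized level of 15 circadian genes, with Arntl, Clock, Nfil3 and Cry1 turned in sign. It was -1.0 ± 0.25 (SD, n = 6) in untreated virgin mice, -0.19 ± 0.60 with formulation, 0.54 ± 0.62 with micro ZnO and 0.64 ± 0.15 with nano ZnO. Untreated mice did not overlap with either particle arm in that score, and the labels give no hour at which a liver was taken. Endothelial markers fell in each virgin sunscreen arm (5 of 8 lower, 0 higher), with a mean log2 level of 6.30 to 6.49 in untreated mice and 5.89 to 6.23 in the others. Of all probe sets 15.0%, 2.80% and 7.18% were lower with formulation, micro ZnO and nano ZnO. Neutrophil markers rose with formulation (5 of 10) and nano ZnO (4 of 10), where 11.5% and 4.77% of all probe sets were higher. Counts for Kupffer cell, stellate cell, bile duct, adipocyte and muscle markers are not given here. In whole liver, fewer cells of a type and less RNA per cell cannot be told apart.

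The classical site for PPARA with RXR is a pair of AGGTCA half-sites spaced by 1 base, so the promoters of the genes were searched for it. RefSeq promoters, from 250 bases before to 50 bases after the start, were searched for 34 of the 40 genes (build GRCm38.p6). Listed genes on 1 chromosome were left out of the search, while the promoters at large kept it. Shares of all promoters count promoters, and the 34 count genes, which held 37 promoters. The perfect repeat AGGTCANAGGTCA stood on either strand in 0.0396% of 32851 promoters and in none of these (0 of 34). The looser AGGNCANAGGNCA stood in 0.381% of all promoters and in 1 of the 34, that of Fabp1, the liver fatty acid binding protein. There it lies on the reverse strand from -67 to -55. The single half-site AGGTCA, which the longer motifs contain, stood in 16.3% of all promoters and in 9 of the 34: Acadm, Acadvl, Acot3, Acot4, Cd36, Cpt1a, Fabp1, Plin2 and Slc27a2. Fabp1 is shown for its repeat, and Acot4 and Plin2 as examples of a single half-site in genes called in virgin mice, chosen after their values were seen. Acadvl, Acot3 and Slc27a2 also hold a half-site and were called in virgin mice. The 250 bases before the start are given, with the match in capitals, at chr6:71199629-71199878 (plus strand), chr12:84038129-84038378 (plus strand) and chr4:86670060-86670309 (minus strand).
Fabp1: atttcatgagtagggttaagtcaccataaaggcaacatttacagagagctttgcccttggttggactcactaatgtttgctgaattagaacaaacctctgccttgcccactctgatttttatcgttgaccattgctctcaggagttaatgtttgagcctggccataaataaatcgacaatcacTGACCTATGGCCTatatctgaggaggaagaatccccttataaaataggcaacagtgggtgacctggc
Acot4: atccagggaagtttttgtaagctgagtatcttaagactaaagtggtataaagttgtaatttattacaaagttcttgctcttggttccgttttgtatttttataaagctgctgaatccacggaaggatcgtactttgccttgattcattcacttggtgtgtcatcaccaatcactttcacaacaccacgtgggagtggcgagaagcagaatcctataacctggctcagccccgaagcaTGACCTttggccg
Plin2: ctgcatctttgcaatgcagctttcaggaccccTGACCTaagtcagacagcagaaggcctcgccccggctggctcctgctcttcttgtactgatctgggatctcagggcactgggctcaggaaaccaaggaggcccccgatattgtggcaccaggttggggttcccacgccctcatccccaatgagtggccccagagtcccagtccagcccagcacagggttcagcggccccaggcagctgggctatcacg
In Fabp1 the capitals mark the looser repeat, and in Acot4 and Plin2 the half-site read on the reverse strand. A match describes the letters of this window and no binding was measured.

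Most of these genes gave bright signals. In untreated mice 25 of 39 lay at or above the 90th percentile of the tested probe sets of their array in virgin mice and 28 of 39 in pregnant mice, while 2 and 1 lay below the 50th. A signal depends on the probes as well as on the transcript, so the order of genes is not read as an order of transcript levels. Array medians ran from 4.66 to 4.90 in virgin and from 3.98 to 4.12 in pregnant mice, so levels are not compared between the experiments, and a gene's own percentile is given instead as a description. Acaa1b, the inducible peroxisomal thiolase, had a median percentile of 95.1 in untreated virgin and 90.1 in untreated pregnant mice. Pdk4, the kinase that shuts pyruvate out of oxidation when fat is burned, stood at 57.1 and 67.5, with wide ranges in both. Fgf21, a fasting hormone of the liver, was dim in both experiments, at 29.9 and 32.4.

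**Figure D1:**
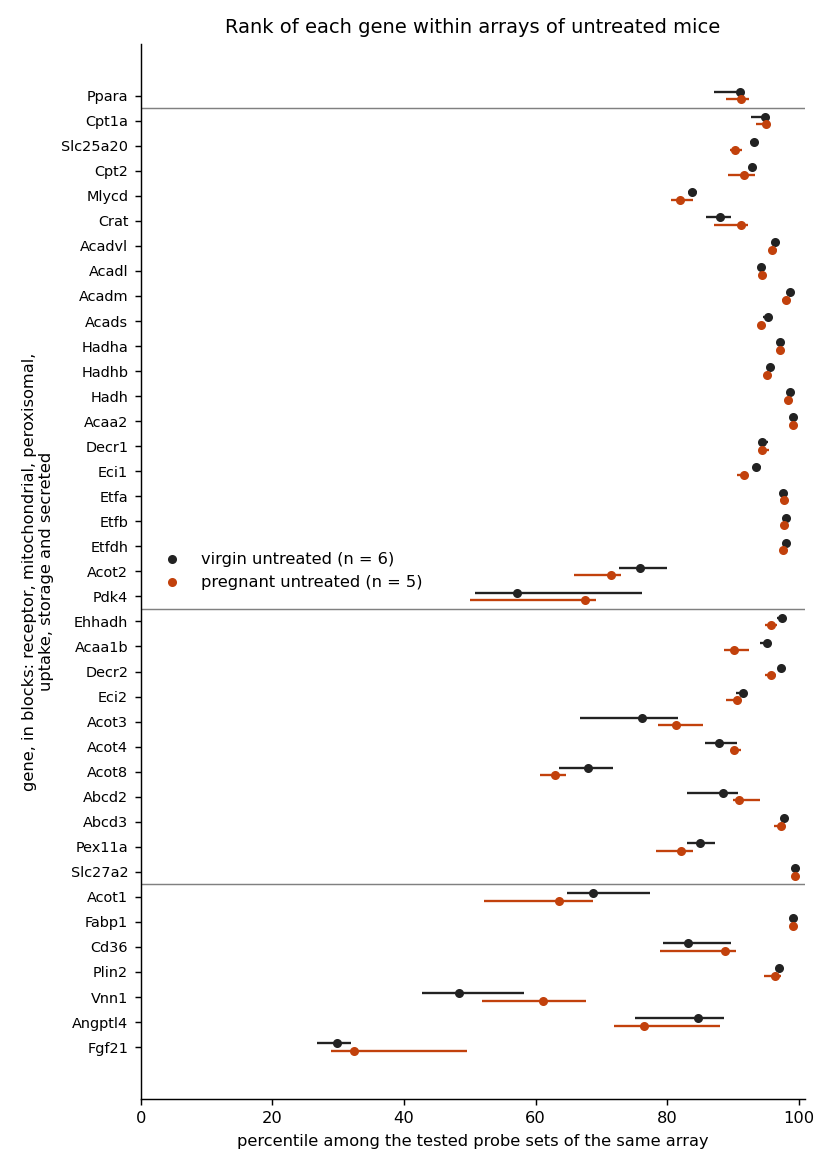
Percentile of each gene among the tested probe sets of the same array (x axis, 0 to 100) in untreated virgin (black, n = 6) and untreated pregnant mice (orange, n = 5), with the point at the median and the line from the lowest to the highest mouse. Of the 39 genes, 25 in virgin and 28 in pregnant mice lie at or above the 90th percentile, and Pdk4 and Fgf21 lie far to the left of most others.

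The first question was whether the base without particles goes with a change in virgin liver. Of the 39 genes, 22 were lower and 0 higher with formulation than in untreated mice, a share of 56.41%, where 26.5% of all tested probe sets were called, 15.0% lower and 11.5% higher. At an unadjusted p under 0.05 there were 25 genes, where 39.7% of all probe sets passed. The median change of the 39 genes was -0.24, against 0.03 for all tested probe sets, and 35 of 39 estimates lay below 0. The groups did not overlap for 8 genes, where 9.50% of all probe sets did not overlap.

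Ppara, the receptor, ran in virgin mice from 7.79 to 8.44 in untreated mice (median 8.30) and from 7.42 to 8.14 with formulation (median 7.66). The groups overlapped, with 4 of the 6 formulation mice below every untreated mouse. The level fell by 0.44 ± 0.14 on the log2 scale (adjusted p = 0.0191).

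Entry into mitochondria gave a mixed picture, with 2 of 5 genes lower. Slc25a20, the carnitine-acylcarnitine translocase, ran from 8.62 to 8.96 in untreated mice (median 8.81) and from 8.10 to 8.63 with formulation (median 8.35). Formulation replicate 3 alone reached into the untreated range. The level of Slc25a20 fell by 0.46 ± 0.09 (adjusted p = 0.00109), and that of Cpt2, which returns the acyl group to CoA inside, fell by 0.34 ± 0.10 (adjusted p = 0.0136). Cpt1a, the rate-limiting step of entry, was not called, with 9.11 ± 0.21 (SD, n = 6) in untreated mice and 9.07 ± 0.32 with formulation. Mlycd and Crat, which set malonyl-CoA and acetyl-carnitine levels, were not called either.

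The spiral itself showed the most even decrease, with 9 of 10 genes called lower and 7 of the 10 without overlap between the groups. Hadhb, the thiolase subunit of the trifunctional protein, ran from 9.37 to 9.55 in untreated mice (median 9.46) and from 8.58 to 9.15 with formulation (median 8.97). All 6 formulation mice lay below all 6 untreated mice. Its level fell by 0.53 ± 0.08, to 0.69 of the untreated level (adjusted p = 5.76e-05). Its second probe set gave 9.34 ± 0.08 and 8.8 ± 0.18 (SD, n = 6), the same direction.

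Decr1, the reductase for unsaturated fatty acids, ran from 8.96 to 9.39 in untreated mice (median 9.16) and from 8.30 to 8.81 with formulation (median 8.66), again without overlap. Its level fell by 0.53 ± 0.08 (adjusted p = 0.000153). The other 7 genes of the spiral that fell did so by less: Acaa2, the thiolase of the matrix, by 0.28, Eci1, an isomerase, by 0.27, the short-chain and long-chain dehydrogenases Acads and Acadl by 0.24 each, Hadh by 0.22, the very long-chain dehydrogenase Acadvl by 0.21 and Hadha by 0.20. Of these, Acaa2, Acads, Acadl, Hadh and Acadvl showed no overlap between the groups.

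Acadm, the medium-chain dehydrogenase, was the exception among the 10. It ran from 10.59 to 11.08 in untreated mice (median 10.81) and from 10.58 to 10.76 with formulation (median 10.68), and the groups overlapped. Among the genes of electron transfer, Etfdh, the oxidoreductase that hands electrons to ubiquinone, fell by 0.28 ± 0.07 (adjusted p = 0.00457), and Etfa and Etfb were not called. Acot2, a mitochondrial thioesterase, fell by 0.44 ± 0.14 (adjusted p = 0.0266).

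Of the peroxisomal genes 5 of 11 fell and 0 rose, with a median change of -0.26. Ehhadh, the bifunctional enzyme of the peroxisomal pathway, ran from 9.79 to 10.47 in untreated mice (median 10.16) and from 9.32 to 10.10 with formulation (median 9.68). The groups overlapped, and the level fell by 0.47 ± 0.11 (adjusted p = 0.00345). Abcd2, a peroxisomal transporter of very long-chain fatty acids, ran from 7.26 to 8.18 in untreated mice (median 7.93) and from 6.58 to 8.07 with formulation (median 7.37), and fell by 0.51 ± 0.18 (adjusted p = 0.0405). Its formulation mice were widely spread, with replicate 1 lowest and replicate 3 highest. Acot4, a thioesterase for dicarboxylic acids, fell by 0.44 ± 0.16 (adjusted p = 0.042), Abcd3 by 0.32 ± 0.09 and Decr2 by 0.26 ± 0.08. The remaining 6, Acaa1b, Eci2, Acot3, Acot8, Pex11a and the very long-chain acyl-CoA synthetase Slc27a2, were not called.

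Among the 7 genes of uptake, storage and secretion, 3 fell. Fabp1 ran from 11 to 11.74 in untreated mice (median 11.33) and from 10.63 to 10.92 with formulation (median 10.70), without overlap. Its level fell by 0.64 ± 0.17, to 0.64 of the untreated level (adjusted p = 0.00675), in size the first of the 22. Plin2, a coat protein of lipid droplets, ran from 9.78 to 10.06 in untreated mice (median 9.97) and from 9.16 to 10.10 with formulation (median 9.33), and fell by 0.44 ± 0.13 (adjusted p = 0.017). The groups overlapped through formulation replicates 1 and 3, and the other 4 formulation mice lay at 9.41 or lower. Acot1, the cytosolic thioesterase, fell by 0.54 ± 0.20 (adjusted p = 0.0476). Cd36, Vnn1, Angptl4 and Fgf21 were not called.

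The decrease with formulation was read against bright probe sets too, since arrays with a smaller interquartile range hold lower values among bright probe sets. Of the 2361 probe sets with a mean of at least 8 in virgin mice, 41.6% were lower, with a median change of -0.16. Of the 25 genes that bright, 18 were lower, with a median of -0.26. With the interquartile range of each array in the model, 0 of 39 genes were called, and 0.765% of all probe sets. Decr1 then stood at -0.46 ± 0.12 and Hadhb at -0.37 ± 0.10 (adjusted p = 0.0573 and 0.0671). With the clock score in the model, 12 genes were lower and 9.43% of all probe sets were called, the 12 including Hadhb, Decr1, Ppara, Fabp1 and Abcd2. Acot1, Acot4, Abcd2, Hadha, Acot2 and Plin2 each lost the call when 1 array was left out. For Plin2 it was formulation replicate 5 (adjusted p = 0.054). For Acot2 it was formulation replicate 1 or 6 or untreated replicate 1, with 0.0549 to 0.0806. For the other 4 there were 6 to 8 such arrays (0.0515 to 0.124).

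**Figure D2:**
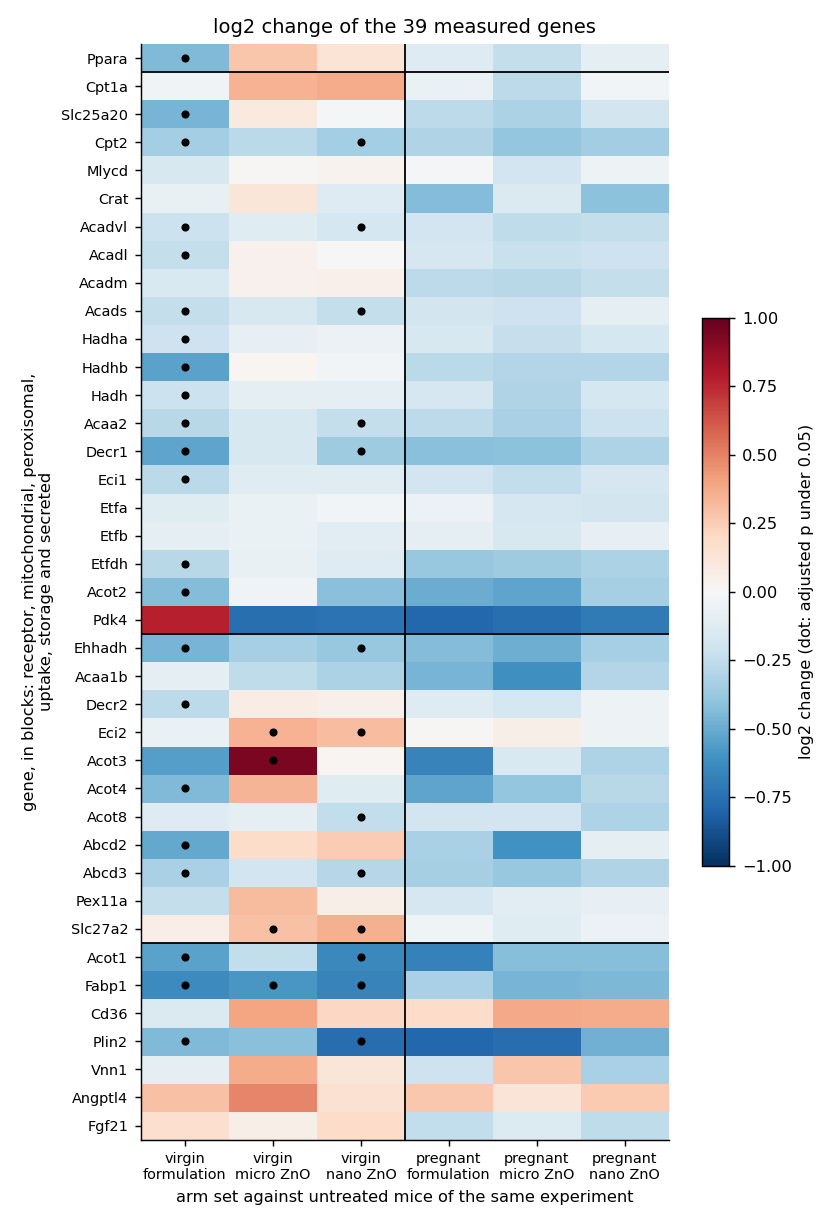
Heat map of the log2 change of each of the 39 genes (rows of the picture, in blocks of receptor, mitochondrial, peroxisomal and other genes) in each sunscreen arm against untreated mice of the same experiment (columns), from blue for lower to red for higher, with a dot where the adjusted p was under 0.05. The virgin formulation column holds 22 dots, all on lower genes, and the 3 pregnant columns hold 0 dots although 35 to 37 of 39 estimates in each lie below 0.

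With micro ZnO, 3 genes were higher than in untreated virgin mice and 1 lower, where the share of all probe sets called was 4.43% (1.63% up and 2.80% down), and the median change of the 39 was -0.03. The groups overlapped for all 39 genes, where 3.31% of all probe sets did not overlap. Acot3, a peroxisomal thioesterase, ran from 6.09 to 7.22 in untreated mice (median 6.68) and from 6.93 to 8.30 with micro ZnO (median 7.58). The groups overlapped, with 4 of 6 micro ZnO mice above every untreated mouse. The level rose by 0.94 ± 0.23, 1.92-fold (adjusted p = 0.0186).

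Eci2, an enoyl-CoA isomerase of peroxisomes, ran from 8.27 to 8.54 and from 8.52 to 9.07, and rose by 0.35 ± 0.10 (adjusted p = 0.0495). Slc27a2 ran from 11.58 to 11.89 in untreated mice and from 11.81 to 12.27 with micro ZnO (medians 11.79 and 12.09), and rose by 0.30 ± 0.08 (adjusted p = 0.0365). All 3 genes that rose are peroxisomal. Fabp1 fell by 0.58 ± 0.17 (adjusted p = 0.0433), with micro ZnO mice from 10.15 to 11.39 and a median of 10.73.

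The count rested on single arrays: it was 0 without untreated replicate 5, and 2 without untreated replicate 4 or 6. It was 1 when untreated replicate 1 or 3, or micro ZnO replicate 1, 2, 4 or 5, was left out. The call of Acot3 was lost without micro ZnO replicate 1 or untreated replicate 3 or 5 (adjusted p = 0.0513 to 0.0582), and Eci2, Slc27a2 and Fabp1 each lost theirs without 8 to 10 of the 12 arrays. With the clock score in the model 0 genes were called and 0.0940% of all probe sets, and Slc27a2 then stood at -0.05 ± 0.11. The part of the clock score in these changes cannot be told apart from that of the arm, since the scores of the groups did not overlap.

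With nano ZnO, 11 genes were lower and 2 higher than in untreated virgin mice, where the share of all probe sets called was 11.9% (7.18% down and 4.77% up). Plin2 ran from 8.99 to 9.39 with nano ZnO (median 9.16), below all 6 untreated mice, and fell by 0.77 ± 0.13, to 0.59 of the untreated level (adjusted p = 0.000771). Fabp1 ran from 9.98 to 11.11 (median 10.76) and fell by 0.66 ± 0.17 (adjusted p = 0.0109), with 1 low mouse, replicate 1. Acot1 ran from 5.96 to 6.82 in untreated mice (median 6.25) and from 5.03 to 5.95 with nano ZnO (median 5.82), a small gap between the groups, and fell by 0.64 ± 0.20 (adjusted p = 0.0357).

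The other genes that fell with nano ZnO were Ehhadh by 0.38 ± 0.11, Decr1 by 0.35 ± 0.08, Cpt2 by 0.34 ± 0.10, Abcd3 by 0.29, the peroxisomal thioesterase Acot8 by 0.25, Acads and Acaa2 by 0.24 each and Acadvl by 0.17. Slc27a2 ran from 11.94 to 12.21 with nano ZnO, above all untreated mice, and rose by 0.35 ± 0.08 (adjusted p = 0.00672). Eci2 ran from 8.45 to 8.95 and rose by 0.31 ± 0.10 (adjusted p = 0.048). The groups did not overlap for 6 of the 39 genes, Plin2, Acot1, Cpt2, Acaa2, Slc27a2 and Cpt1a, where 4.96% of all probe sets did not overlap. Cpt1a, at 9.34 to 9.69 with nano ZnO and 8.76 to 9.28 in untreated mice, lay above the untreated range in all 6 mice but missed the threshold (0.37 ± 0.14, adjusted p = 0.0765).

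By role, the nano ZnO decrease held 5 of 20 mitochondrial genes, 3 of 11 peroxisomal genes and 3 of 7 genes of uptake, storage and secretion. Among probe sets as bright as 8 or more, 24.8% were lower, beside 9 of 25 of these genes. The total of 13 became 7 without untreated replicate 1 or 4 and 8 without untreated replicate 3 or 5 or nano ZnO replicate 4. Plin2, Fabp1, Slc27a2, Decr1, Acads and Acaa2 were called whichever array was left out, and the other 7 lost the call without at least 3 arrays (adjusted p = 0.0504 to 0.126). With the interquartile range in the model 6 were called and 4.13% of all probe sets. With the clock score there were 0 of 39 and 0.0342%, and Plin2 then stood at -0.37 ± 0.21, Fabp1 at -1.09 ± 0.27 and Slc27a2 at -0.02 ± 0.11.

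The 3 arms share their untreated mice, so their changes are given side by side only. Hadhb changed by -0.53 with formulation and stood at 9.48 ± 0.06 with micro ZnO and 9.44 ± 0.14 with nano ZnO (SD, n = 6), beside 9.46 ± 0.07 in untreated mice. Fabp1 was lower in all 3 arms, at 10.72 ± 0.11, 10.78 ± 0.41 and 10.70 ± 0.41 beside 11.36 ± 0.25. Plin2 was at 9.49 ± 0.38, 9.51 ± 0.28 and 9.16 ± 0.14 beside 9.93 ± 0.11, and was called with formulation and nano ZnO.

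**Figure D3:**
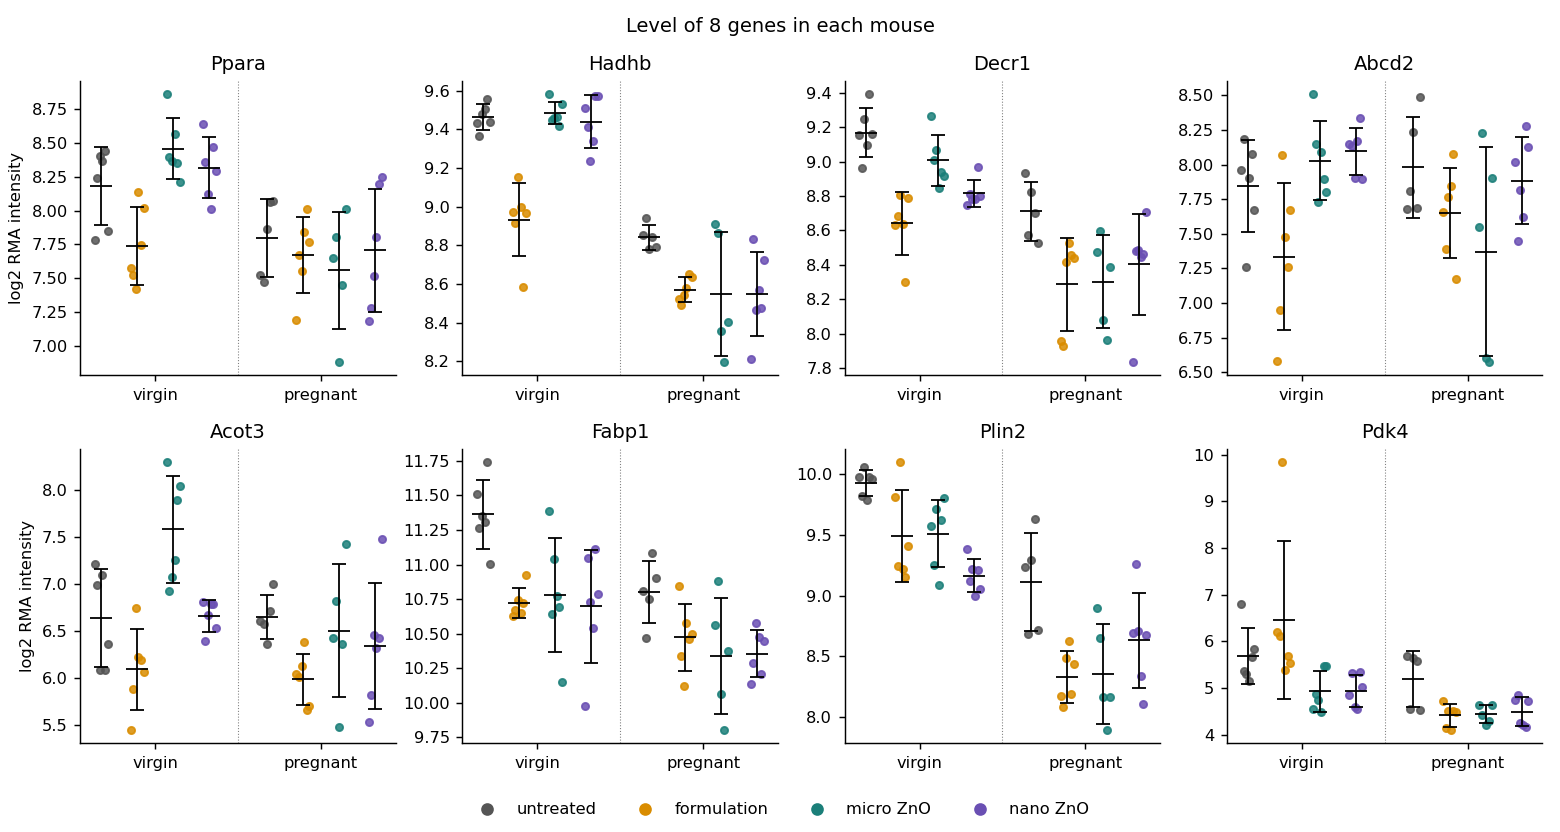
Log2 intensity (y axis, not starting at 0) of Ppara, Hadhb, Decr1, Abcd2, Acot3, Fabp1, Plin2 and Pdk4 in each mouse by experiment and arm, with a point per mouse and bars for the mean and SD. Virgin formulation mice lie below all mice of the other 3 virgin arms for Hadhb, at 8.58 to 9.15, and 1 formulation mouse lies far above all others for Pdk4, at 9.84.

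Particles were then compared with the base that carried them, which asks what the particles add to the sunscreen. The formulation mice are the same as in the comparison with untreated mice, so the results are not independent. Of the 22 genes lower with formulation, 8 were among the 11 higher with micro ZnO and 6 among the 7 higher with nano ZnO. With micro ZnO 11 genes were higher and 1 lower than with formulation in virgin mice, where the share of all probe sets called was 6.83% (5.14% up and 1.69% down). The median of the 39 changes was 0.20, against -0.01 for all. Of the probe sets with a mean of at least 8, 15.0% were higher, beside 7 of the 25 genes that bright. By role 6 of 11 peroxisomal genes were higher, 4 of 20 mitochondrial genes, and Ppara. The groups did not overlap for 7 genes, where 3.77% of all probe sets did not overlap.

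Ppara ran from 8.21 to 8.86 with micro ZnO (median 8.38), above all 6 formulation mice, and rose by 0.72 ± 0.14, 1.65-fold (adjusted p = 0.00322). Acot3 ran from 5.45 to 6.75 with formulation (median 6.13), below every micro ZnO mouse, and rose by 1.49 ± 0.23, 2.81-fold (adjusted p = 0.000567). Acot4 ran from 7.12 to 7.89 with formulation and from 7.71 to 8.61 with micro ZnO (medians 7.34 and 8.21), and rose by 0.78 ± 0.16 (adjusted p = 0.00471). Acot1 to Acot4 are neighbouring genes of near-identical sequence, so probes could share signal among them, and the split of a change between them is uncertain.

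Abcd2 ran from 7.73 to 8.51 with micro ZnO and rose by 0.69 ± 0.18 (adjusted p = 0.0217). That call was lost without formulation replicate 1, 2 or 5 (0.0503 to 0.0593). Slc25a20 ran from 8.70 to 9.05 (median 8.88), above all formulation mice, and rose by 0.56 ± 0.09 (adjusted p = 0.00141). Hadhb, at 9.42 to 9.58, rose by 0.55 ± 0.08 (adjusted p = 0.000177), and Pex11a, a factor of peroxisome division, rose by 0.55 ± 0.12 (adjusted p = 0.00637). Eci2, Decr1, Decr2 and Acadl rose by 0.41, 0.36, 0.33 and 0.28.

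With nano ZnO 7 genes were higher than with formulation and 0 lower, where the share of all probe sets called was 3.25% (2.52% up and 0.722% down). Of the probe sets with a mean of at least 8, 8.26% were higher, beside 6 of the 25 genes that bright. Abcd2 ran from 7.89 to 8.33 with nano ZnO (median 8.14) and rose by 0.76 ± 0.18, 1.69-fold (adjusted p = 0.0212). Ppara ran from 8.01 to 8.64 (median 8.33) and rose by 0.58 ± 0.14 (adjusted p = 0.0195). Both ranges overlapped with formulation, that of Ppara through formulation replicates 4 and 6 alone. Ppara lost the call without formulation replicate 2 or nano ZnO replicate 1 (0.0519 and 0.0591), and Abcd2 without formulation replicate 1 or 2 (0.053 and 0.0576).

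Hadhb ran from 9.23 to 9.57 with nano ZnO, above all formulation mice, and rose by 0.51 ± 0.08 (adjusted p = 0.00104). Slc25a20 rose by 0.44 ± 0.09, Eci2 by 0.37 ± 0.10, Decr2 by 0.31 ± 0.08 and Acadl by 0.24 ± 0.06. The groups did not overlap for Hadhb, Acadm and Pdk4, 3 of the 39, where 1.82% of all probe sets did not overlap. The count of 7 became 2 without formulation replicate 2 and 4 without formulation replicate 1 or nano ZnO replicate 1 or 6. Eci2, Decr2 and Acadl also lost the call without some single arrays (adjusted p = 0.0507 to 0.118). The 2 comparisons share the formulation mice. With the interquartile range in the model the counts were 7 of 39 for micro ZnO and 3 for nano ZnO, where 0.914% and 0.666% of all probe sets were called. Hadhb and Ppara were called in both, Hadhb at 0.46 ± 0.08 and 0.43 ± 0.08. With the clock score the counts were 8 and 2, beside 6.47% and 1.76% of all probe sets, and Hadhb was again called in both.

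**Figure D4:**
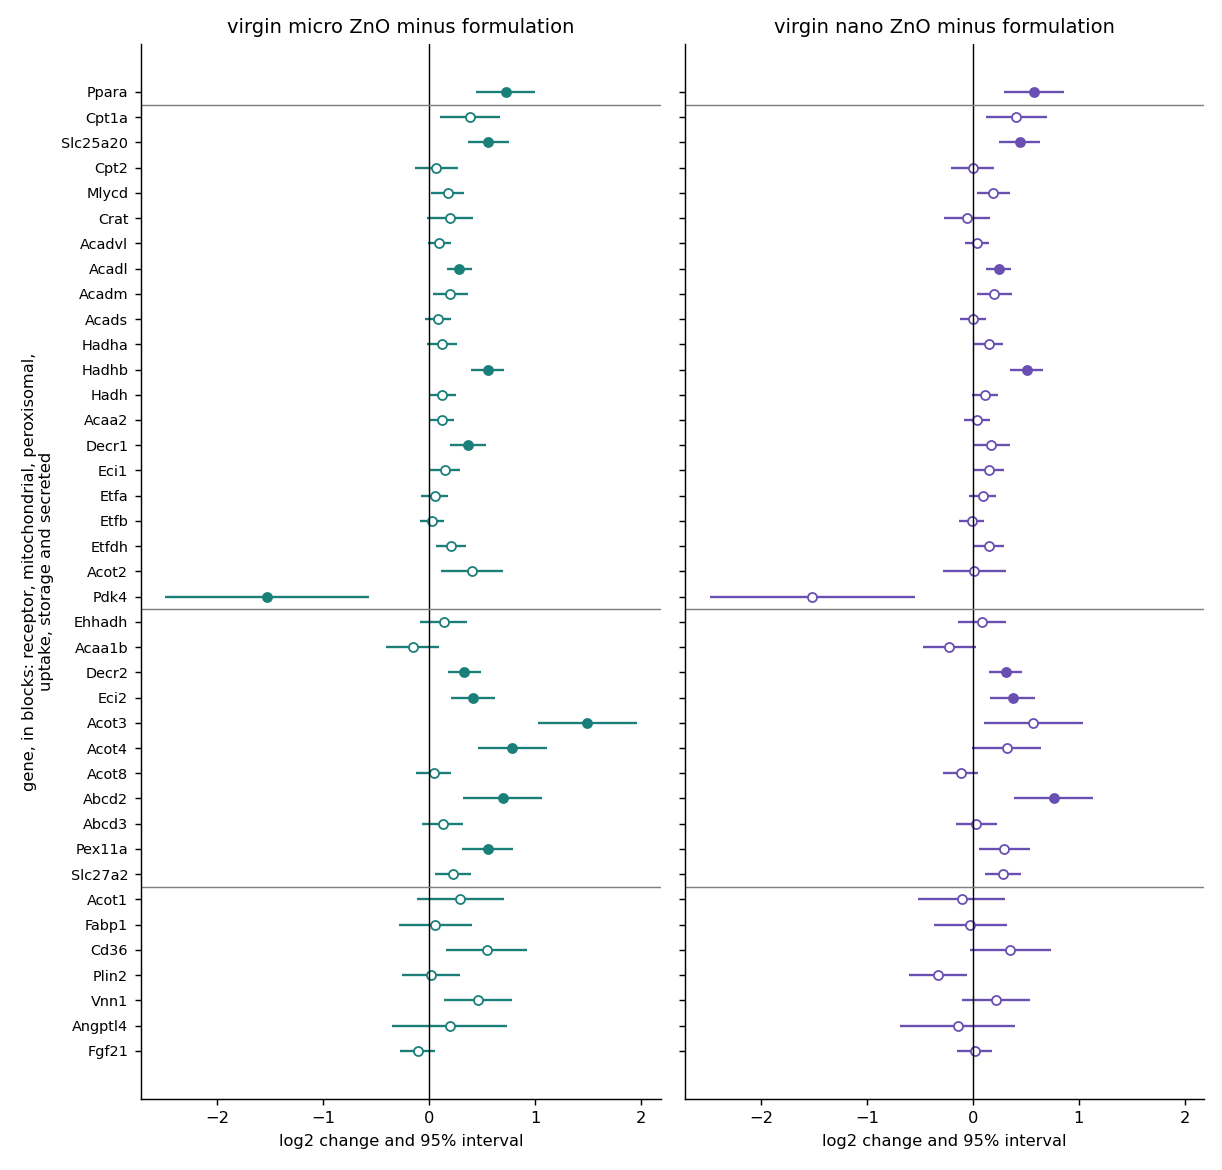
Log2 change (x axis) with its 95% interval for each of the 39 genes, with micro ZnO (left) and nano ZnO (right) against the formulation without particles in virgin mice, in blocks by role, with filled points where the adjusted p was under 0.05. Ppara, Slc25a20, Hadhb, Abcd2, Eci2, Decr2 and Acadl are filled in both panels, and Pdk4 lies farthest below 0 in both.

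Micro ZnO and nano ZnO were not told apart by any called gene in virgin mice. Of the 39, 0 were called and 7 had an unadjusted p under 0.05, where 4.72% of all probe sets did and 0 were called. Acot3 showed the largest estimate, 6.39 to 6.81 with nano ZnO (median 6.73) against 6.93 to 8.30 with micro ZnO. It was the only 1 of the 39 genes without overlap, where 0.175% of all probe sets did not overlap. It was lower with nano ZnO by estimate, -0.92 ± 0.23, with an unadjusted p of 0.000421 by limma and an adjusted p of 0.961. The 95% interval of that difference ran from -1.39 to -0.45.

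Pdk4 moved on its own. In virgin mice it ran from 5.15 to 6.80 in untreated mice (median 5.52), from 5.39 to 9.84 with formulation (median 5.90), from 4.48 to 5.48 with micro ZnO (median 4.80) and from 4.56 to 5.35 with nano ZnO (median 4.94). Formulation replicate 3, at 9.84, stood far above the other 5, at 5.39 to 6.20. Against formulation Pdk4 fell by 1.53 ± 0.47 with micro ZnO (adjusted p = 0.0476). Without formulation replicate 3 the change was -0.86 (adjusted p = 0.0285). The call was lost without formulation replicate 1, 2 or 5 or any 1 of the 6 micro ZnO mice (0.0511 to 0.0958). With nano ZnO the change was -1.51 ± 0.47 (adjusted p = 0.0733).

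The same formulation mouse had the highest level of its arm for Plin2 (10.10), Angptl4, an inhibitor of lipoprotein lipase (8.70), Ehhadh (10.10), Abcd2 (8.07) and Hadhb (9.15), and the lowest for Ppara (7.42). Its mean over the 39 genes was 0.14 above the mean of the virgin experiment, where the other 5 formulation mice lay at -0.26 to -0.14. That mean includes Pdk4: over Acot2 and Pdk4 the highest formulation mouse stood at 2.35. Over the genes of the mitochondrial spiral all formulation mice lay below the experiment mean, at -0.28 to -0.05. Without replicate 3, 23 genes were lower with formulation than in untreated mice, 15 differed between micro ZnO and formulation, and 9 between nano ZnO and formulation.

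**Figure D5:**
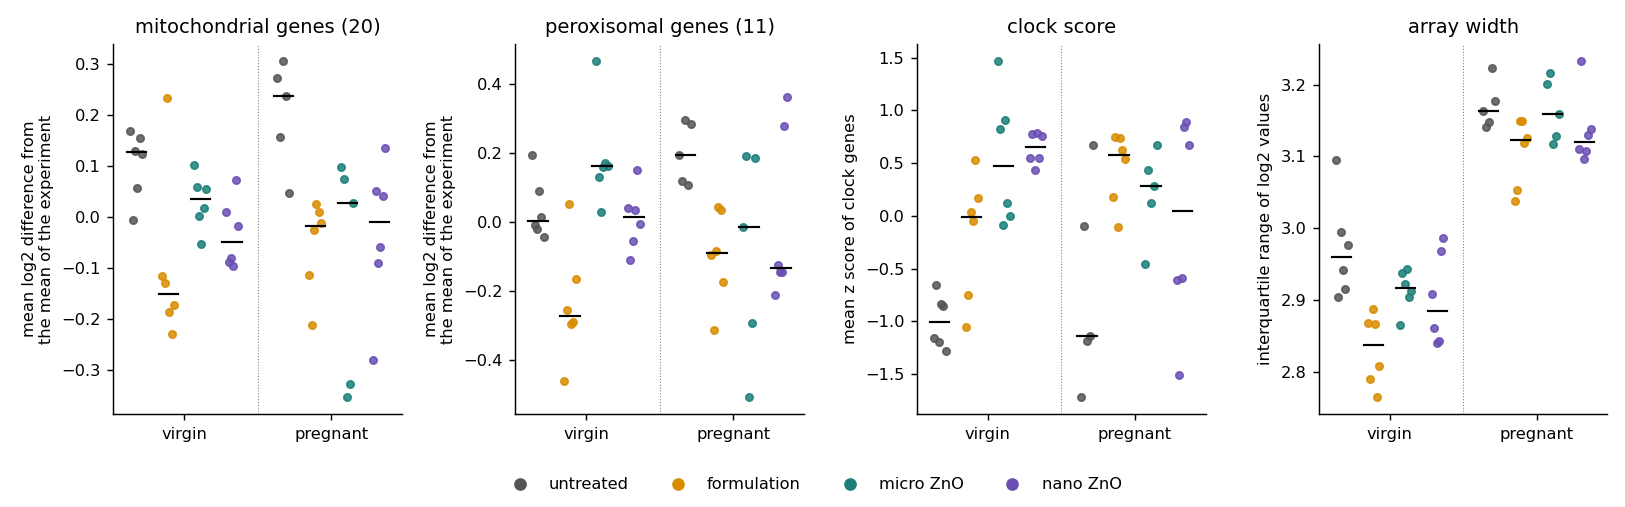
From left to right, the mean log2 difference of the 20 mitochondrial and of the 11 peroxisomal genes from the mean of the experiment, the clock score and the interquartile range of each array (y axes), with a point per mouse and a bar at the median of each arm. Virgin formulation replicate 3 lies above the other formulation mice in the mitochondrial genes, at 0.23, a mean that includes its high Pdk4. Over the genes of the spiral alone, all virgin formulation mice lie below the mean of the experiment, at -0.28 to -0.05. Among the virgin arms, untreated mice lie lowest in the clock score as a group, and formulation arrays have the lowest median interquartile range. The clock score was standardized within each experiment, so it is not compared between them.

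Several targets that are often read as signs of receptor activity were not called in virgin mice. Acaa1b ran from 9.02 to 9.55 in untreated mice (median 9.32), from 9.02 to 9.54 with formulation, from 8.81 to 9.27 with micro ZnO and from 8.44 to 9.41 with nano ZnO. Cd36, a fatty acid translocase, ran from 6.88 to 8.04 in untreated mice, and its means were 7.37, 7.22, 7.76 and 7.57 in the 4 arms with SDs of 0.28 to 0.43. Angptl4 had means of 7.35, 7.65, 7.84 and 7.50 with SDs of 0.43 to 0.70, and Fgf21 means of 4.09, 4.25, 4.14 and 4.27 with SDs of 0.09 to 0.16. The arms overlapped in all 4 genes.

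In pregnant mice the question was whether the same sunscreens go with a change near term. None of the 39 genes was called with formulation, micro ZnO or nano ZnO against untreated mice (0 of 39 in each by limma), where 0.0598%, 0.107% and 0.0214% of all probe sets were called. At an unadjusted p under 0.05 there were 18, 19 and 17 genes, where 12.3%, 9.08% and 10.2% of all probe sets passed. The medians of the 39 changes were -0.25, -0.25 and -0.24, against about 0 for all tested probe sets, and 36, 35 and 37 estimates lay below 0. Bright probe sets lay lower too: the 1812 with a mean of at least 8 in pregnant mice had medians of -0.08, -0.06 and -0.09. The 19 genes that bright had medians of -0.19, -0.28 and -0.22. All 20 mitochondrial estimates lay below 0 in each arm. The micro ZnO mice were split in the mean of these 20 genes relative to the experiment mean. Replicates 3 and 4 lay at -0.35 and -0.33, and replicates 1, 2 and 5 at 0.10, 0.07 and 0.03. Untreated mice lay at 0.05 to 0.31. With formulation the groups did not overlap for 6 genes, Acot2, Acot4, Acaa2, Hadhb, Etfdh and Plin2, and with micro ZnO and nano ZnO for 1, Etfdh, where 2.36%, 1.34% and 1.29% of all probe sets did not overlap. The 3 comparisons share the 5 untreated mice, so these counts are not independent.

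Plin2 was at 9.24, 8.69, 9.30, 9.63 and 8.71 in the 5 untreated pregnant mice and ran from 8.08 to 8.62 with formulation (median 8.31). The groups did not overlap, and the change was -0.78 ± 0.19 (adjusted p = 0.175). With micro ZnO Plin2 was at 8.90, 8.65, 8.17, 7.89 and 8.16, a change of -0.76 ± 0.20 (adjusted p = 0.174), and with nano ZnO it ran from 8.11 to 9.26, a change of -0.48 ± 0.19 (adjusted p = 0.433). Both overlapped with untreated mice.

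Acot2 changed by -0.50 ± 0.12, -0.53 ± 0.13 and -0.33 ± 0.12 in the 3 arms (adjusted p = 0.162, 0.0986 and 0.388), and 0.0986 was the smallest adjusted p of the 39 genes against untreated pregnant mice. Pdk4 was at 5.69, 4.56, 5.63, 5.59 and 4.52 in untreated mice, in which replicates 2 and 5 were as low as treated mice, and changed by -0.79 ± 0.20, -0.76 ± 0.21 and -0.71 ± 0.20. Etfdh was at 9.78, 9.80, 9.92, 9.71 and 9.70 in untreated mice and lay lower in every treated mouse, 9.14 to 9.66 with formulation, 9.22 to 9.67 with micro ZnO and 9.23 to 9.69 with nano ZnO. Its changes were -0.38 ± 0.11, -0.35 ± 0.11 and -0.32 ± 0.11 (adjusted p = 0.233, 0.274 and 0.348).

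Hadhb was at 8.85, 8.94, 8.78, 8.84 and 8.79 in untreated pregnant mice and ran from 8.49 to 8.65 with formulation, without overlap, with a change of -0.27 ± 0.11 (adjusted p = 0.362). With micro ZnO it was at 8.91, 8.87, 8.36, 8.20 and 8.40, which splits between replicates 1 and 2 within the untreated range and the others below it. Decr1 changed by -0.42, -0.41 and -0.31 and Ehhadh by -0.44, -0.49 and -0.33. Ppara was at 7.53, 7.47, 7.87, 8.07 and 8.07 in untreated mice and changed by -0.13, -0.24 and -0.09, within the spread of the groups.

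Fit on formulation and untreated pregnant mice alone, Acot2, Acot3 and Plin2 were called lower (3 of 39, adjusted p = 0.0406, 0.0479 and 0.0479), where 0.226% of all probe sets were called. With the interquartile range in the model Plin2 was called lower with micro ZnO (1 of 39, adjusted p = 0.0488). Acot2 was called lower with micro ZnO without micro ZnO replicate 2 (1 of 39, adjusted p = 0.0332). These 5 results were named after their values were seen. Neutrophil markers rose with micro ZnO in pregnant mice (3 of 10, where 0.107% of all probe sets were called). Their mean log2 level was 5.10 to 6.18, beside 4.25 to 4.71 in untreated mice. Of 8 endothelial markers 0 were called in pregnant mice, where their mean log2 level was 5.59 to 5.94 in untreated mice, 5.21 to 5.58 with formulation, 5.06 to 5.72 with micro ZnO and 5.24 to 5.65 with nano ZnO, without overlap for formulation. The part of both marker lists in the lower estimates was not tested. The clock scores of pregnant untreated mice were spread from -1.72 to 0.67.

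Between the sunscreen arms of pregnant mice 0 of 39 genes were called, as were 0 of all probe sets. At an unadjusted p under 0.05 there was 1 gene for micro ZnO against formulation, 0 for nano ZnO against formulation and 2 for nano ZnO against micro ZnO, where 7%, 3.07% and 4.64% of all probe sets passed.

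The responses were then compared between the experiments, as the response of pregnant minus that of virgin mice. None of the 39 genes was called for formulation, micro ZnO or nano ZnO (0 of 39 in each by limma), where 0.145%, 0.0470% and 0.0427% of all probe sets were called. At an unadjusted p under 0.05 there were 2, 13 and 4 genes, where 10.2%, 7.43% and 6.26% of all probe sets passed. For formulation these 2 were Pdk4 at -1.56 ± 0.56 and Fgf21 at -0.41 ± 0.17 (adjusted p = 0.299 and 0.386). Each moved most with 1 mouse: without virgin formulation replicate 3 Pdk4 stood at -0.89 ± 0.33 (adjusted p = 0.278), and without pregnant untreated replicate 4 Fgf21 stood at -0.21 ± 0.14 (adjusted p = 0.604). For micro ZnO 38 of 39 estimates lay below 0, with a median of -0.25. The smallest p belonged to Slc27a2 at -0.41 ± 0.13 and Acot3 at -1.09 ± 0.38 (adjusted p = 0.34 and 0.431). The absence of a call in pregnant mice is thus not shown to be a different response.

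Genes of the same pathways outside the list were counted in virgin mice. Of all probe sets, 15.0% were lower and 11.5% higher with formulation. Of 26 other peroxisomal genes 15 were lower with formulation and 0 higher, led by Nudt7, a peroxisomal CoA diphosphatase, at -1.18 ± 0.19, and Pex3, a factor of membrane assembly, at -0.68 ± 0.08 (adjusted p = 0.000199 and 9.55e-06). Amacr and Scp2, which act on branched chains and bile acid precursors, changed by -0.45 and -0.41. Against formulation, 5 of 26 were higher with micro ZnO and 3 with nano ZnO, where 5.14% and 2.52% of all probe sets were higher. Pex3 was higher by 0.47 in each, and Pex19 and Scp2 were among both. Nudt7 was below untreated in the particle arms too, at -0.97 and -0.86, as were Crot, the peroxisomal carnitine octanoyltransferase, at -0.39 and -0.38, and Pex16 at -0.25 and -0.28. Of 4 genes of ketone body metabolism 3 were lower with formulation: Bdh1 at -0.64, the ketone and lactate carrier Slc16a1 at -0.51 and Acat1 at -0.49. Slc16a1 and Acat1 were also lower with micro ZnO and nano ZnO, Slc16a1 at -0.72 and -0.82. Of all probe sets 2.80% and 7.18% were lower in these arms than in untreated mice. In pregnant mice Acat1 was lower with formulation, at -0.60 ± 0.12 (adjusted p = 0.0457), where 0.0598% of all probe sets were called, and no other gene of these 4 was called.

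The Cyp4a genes are omega-hydroxylases and strong targets of the receptor in rodents. They gave 0 of 5 calls with formulation, where 26.5% of all probe sets were called. Cyp4a14 rose with micro ZnO by 2.34 ± 0.41 and with nano ZnO by 1.53 ± 0.41 against untreated mice (adjusted p = 0.00125 and 0.0153). Against formulation, Cyp4a14, Cyp4a31 and Cyp4a10 were higher with micro ZnO, by 1.88, 1.24 and 0.96, and Cyp4a31 with nano ZnO, by 0.86. Of all probe sets 5.14% and 2.52% were higher than with formulation in these arms, and 1.63% and 4.77% higher than in untreated mice. Cyp4a10 and Cyp4a31 are near copies of one another, so their signals may be shared. Cyp4a12b was lower in both particle arms, at -0.81 and -0.78. Its signal was dim, with a mean of 2.59 over all arrays, below the lowest array median of 3.98, so this change may lie near background. The response of Cyp4a14 to micro ZnO differed between the experiments, by -2.37 ± 0.48 as pregnant minus virgin (adjusted p = 0.0265). With the clock score in the model that call was lost, as 0 of 23410 probe sets were called.

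Among 13 partners of the receptor, Ppargc1a, a coactivator of fat oxidation, and Lpin1 were higher with formulation, by 0.80 ± 0.29 and 1.04 ± 0.38, as was Rxra, by 0.23 ± 0.07. Creb3l3, a liver transcription factor of fasting, was lower, at -0.41 ± 0.07, and was higher with micro ZnO than with formulation, by 0.37 ± 0.07. Ppard, a related receptor, was lower with micro ZnO and nano ZnO than in untreated mice, at -0.55 and -0.53. At most 4 called partners were described per comparison, and the counts in each direction are not given here. With formulation 26.5% of the tested probe sets passed the threshold, so the named partners are not read as a trait of their list. Of 13 genes of lipolysis and lipid droplets 3 were lower and 1 higher with formulation, where 15.0% and 11.5% of all probe sets were. That total is near the 26.5% of all probe sets called, so it is not read as a trait of the list. Pnpla2, the triglyceride lipase ATGL, rose by 0.50 ± 0.15 with formulation and by 0.64 ± 0.15 with nano ZnO, and Mgll, Plin3 and Cideb fell by 0.39, 0.37 and 0.28 with formulation. Mgll and Plin3 were higher with micro ZnO than with formulation, by 0.40 and 0.25. In the same arms the clock gene Ciart changed by 0.96 with formulation, 2.59 with micro ZnO and 2.25 with nano ZnO, and Arntl by -1.49 and -1.67 with the particles. The part of the clock genes, of the endothelial and neutrophil markers and of array spread in these changes was not tested. No model held the endothelial or neutrophil markers, and values with the clock score or array spread are not given here for these lists. Over all probe sets, 9.43% were called with the clock score as covariate for formulation against untreated virgin mice, and 0.765% with array spread. The shares for micro ZnO and nano ZnO were 0.0940% and 0.0342% with the clock score, and 2.26% and 4.13% with array spread.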

How the data were processed

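Liver RNA of 46 mice was measured on Affymetrix whole-transcript arrays. The deposited values are log2 intensities made by the authors with RMA, per the submitters' processing notes, with no version given in the sources used here; RMA corrects background, equalizes the distributions of arrays and sums up probes. Whether both experiments were normalized together is not stated, and their array medians lay apart. No detection calls or scan dates were used, so signal near background could not be marked. Precision is limited by how many arrays each group holds. p-values measure the spread between the mice of these groups.

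Of 35512 probe sets, 21789 had 1 gene symbol, 1621 several and 12102 none. The 23410 with a symbol were tested, and no name rested on a probe set with several. A gene table of GRCm38.p6 matched 21698 of them and changed 0 symbols. A model of the 4 arms was fitted per experiment in R 4.3.3 with limma 3.58.1 (lmFit and eBayes), and a model of the 8 groups for the response differences. Tests were two-sided with Benjamini-Hochberg adjustment over all 23410. Genes described in full were 13 set names plus, in each comparison, up to 6 called genes of largest change; of each other pathway list, up to 4 called genes per comparison. The genes, lists and tests were chosen with earlier results of these data known. The fit was tested on simulated data. Values of all 46 arrays were used, and no pair of arrays was identical (0 pairs). Alternatives covered dim probe sets, unnamed probe sets, variance trend, further quantile normalization, array spread, clock score, replicate number, averaged probe sets, the compared groups alone and each array left out in turn.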

Additional observations from a re-analysis of the deposited data

Results flagged for a closer look

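For 20 genes described in full, each of the 8 groups was searched for a mouse far from the rest of its group, and 6 of 160 groups held one. Chance flags about 1 in 20 groups. No gene met the criteria for a different response between virgin and pregnant mice (0).

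Pdk4 in virgin formulation replicate 3 was highest of its group, at 9.84, where the other 5 mice lay at 5.39 to 6.20. Decr1 held 3 of the 6: virgin formulation replicate 5 was lowest at 8.30 (others 8.63 to 8.81), virgin nano ZnO replicate 5 was highest at 8.97 (others 8.75 to 8.81), and pregnant nano ZnO replicate 1 was lowest at 7.84 (others 8.45 to 8.71). Ehhadh in virgin nano ZnO replicate 6 was lowest at 9.52 (others 9.75 to 9.87). Fgf21 in pregnant untreated replicate 4 was highest at 4.43 (others 3.26 to 3.48), the mouse that also had the highest Plin2 of its group, 9.63.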

How the results depend on the processing

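The counts of genes called in virgin mice moved by over 1.5 times under several settings, and the cause was not tested. Formulation against untreated, 22, became 7 after further quantile normalization, 0 with array spread and 12 with the clock score as covariate (17 to 23 without 1 array). Micro ZnO against untreated, 4, became 1 with all probe sets, 2 after quantile normalization, 2 with the replicate number as a block, 2 with array spread, 0 with the clock score and 1 with the compared groups alone (0 to 5 without 1 array). Nano ZnO against untreated, 13, became 7 after quantile normalization, 6 with array spread and 0 with the clock score (7 to 13). Micro ZnO against formulation, 12, became 7 with array spread (10 to 15). Nano ZnO against formulation, 7, became 4 after quantile normalization, 3 with the replicate block, 3 with array spread, 2 with the clock score and 3 with the compared groups alone (2 to 9). Pregnant counts of 0 became 3 for formulation with the compared groups alone and 1 for micro ZnO with array spread (0 to 1 without 1 array). Of 58 calls, 4 changed sign, all with the clock score: Slc27a2 to -0.0519 with micro ZnO and, with nano ZnO, Slc27a2 to -0.0186, Eci2 to -0.0527 and Cpt2 to 0.0295. Leaving out dim probe sets and averaging probe sets kept all 58 calls; array spread kept 16, the clock score 21, quantile normalization 29 and the replicate block 43. Deviations of same-numbered mice had a median r of -0.127 in virgin mice (1 of 36 pairs over 0.1) and 0.024 in pregnant mice (12 of 31), so the numbers were not read as pairs. After quantile normalization all probe sets for nano ZnO against formulation split into 494 higher and 266 lower, beside 591 and 169.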
